A study of Danio rerio with 6 samples.

Results

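Transcripts of pancreatic islet hormones, and of a transcription factor of islet cells, were followed in liver RNA of zebrafish larvae (Danio rerio) at 7 days post fertilization. The genes were ins, gcga, gcgb, sst1.1, sst2 and pdx1, taken by their symbols in the deposited gene table, and 6 of 6 were present among the 21589 genes of that table. They were picked with their differences between these same libraries known, so their levels and fold changes are given as a description and no test of them is made. The transgenic larvae carried a transgene for foxn3, a forkhead-box transcription factor. They were set against wild-type siblings of the same age, with 3 libraries in each group. The labels give neither the promoter of the transgene, nor how many livers went into a library, nor whether the 3 libraries of each kind stem from different clutches, so the spread between libraries may be technical. The series asks which liver transcripts differ between the groups.

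The islet is the hormone-secreting part of the pancreas. Its beta cells make insulin, which lowers blood glucose, its alpha cells make glucagon, which makes the liver release glucose, and its delta cells make somatostatin, which holds back both. The transcription factor Pdx1 is needed for the pancreas to form and for beta cells to express insulin, and it is also made in the duodenum. Hepatocytes are not a usual source of these hormones, and in the larva the pancreas lies close to the liver and the gut.

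The libraries held 11356831, 12550954 and 10891720 counts in transgenic livers and 10884596, 12214349 and 7732478 counts in wild-type livers. Levels within a gene are given as CPM, the counts of a gene per 1000000 of the TMM-scaled library total. Levels of different genes are compared as FPKM, which the authors scaled to gene length and library total. foxn3 itself stood at 167, 208 and 220 CPM in transgenic libraries and at 27.1, 18.9 and 43.1 CPM in wild-type libraries, so the groups followed their labels. The hepatocyte markers of the table, such as the transferrin gene tfa, took 9.03, 9.72 and 9.72% of the counts in transgenic and 9.25, 8.72 and 9.86% in wild-type libraries. The hepatocyte genes fabp10a and apoa2 stand on the authors' list of genes with high counts and not in the table. All 6 members passed the filter on low counts, as did 19573 genes in all.

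ins, the preproinsulin gene (ENSDARG00000035350, chromosome 5, 39454958 to 39457905, plus strand, Zv9), had the highest mean FPKM of the members in each group. Its range over the libraries was the widest of the members. It had 27, 500 and 341 counts in transgenic libraries 1 to 3, or 2.28, 47.0 and 29.5 CPM. In wild-type libraries 1 to 3 it had 13, 80 and 3 counts, or 1.16, 6.16 and 0.402 CPM. Transgenic libraries 2 and 3 lay above every wild-type library, while transgenic library 1 lay below wild-type library 2. The mean was 26.3 ± 22.6 CPM in transgenic and 2.57 ± 3.13 CPM in wild-type libraries (SD, n = 3 per group), a 10.2-fold ratio. The log2 fold change of 3.25 ± 1.01 (SE) was the highest of all 19573 genes tested, and it is a value that led to the choice of this gene. The 3 counts of wild-type library 3 have an exact 95% Poisson interval of 0.619 to 8.77, which covers counting error only.

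The glucagon genes gcga and gcgb, the 2 copies of the glucagon gene in zebrafish, had the same 3 libraries on top as ins. gcga (ENSDARG00000079296, chromosome 22, 11727669 to 11732216, minus strand) had 2.62, 10.8 and 6.57 CPM in transgenic and 1.88, 4.23 and 0.937 CPM in wild-type libraries. Transgenic library 1 again lay below wild-type library 2, and the log2 fold change was 1.44 ± 0.57. gcgb (ENSDARG00000040907, chromosome 9, 52611547 to 52617862, plus strand) had 9, 142 and 54 counts, or 0.760, 13.4 and 4.67 CPM, in transgenic libraries. It had 9, 20 and 3 counts, or 0.804, 1.54 and 0.402 CPM, in wild-type libraries. Its log2 fold change of 2.67 ± 0.86 rested on transgenic libraries 2 and 3, since transgenic library 1 lay below wild-type libraries 1 and 2.

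Both somatostatin genes among the members had transgenic libraries 2 and 3 on top. sst1.1 (ENSDARG00000040799, chromosome 15, 35424825 to 35426691, plus strand) had 13, 137 and 85 counts, or 1.1, 12.9 and 7.35 CPM, in transgenic libraries. It had 11, 29 and 9 counts, or 0.982, 2.23 and 1.21 CPM, in wild-type libraries. Transgenic library 1 lay within the wild-type range, and the log2 fold change was 2.23 ± 0.72. sst2 (ENSDARG00000014190, chromosome 2, 5368742 to 5371233, minus strand) had 13, 34 and 27 counts, or 1.1, 3.20 and 2.33 CPM, in transgenic libraries. It had 7, 14 and 5 counts, or 0.625, 1.08 and 0.669 CPM, in wild-type libraries. sst2 was the member whose groups did not overlap, by a margin of 1.098 CPM in transgenic library 1 over 1.077 CPM in wild-type library 2, and its log2 fold change was 1.43 ± 0.47. This is 1 of 6 members. Of the genes tested, 3.31% had each transgenic library over each wild-type one and 50.6% had a positive log2 fold change, as 6 of 6 members had. Since the members were chosen on this contrast, nothing is read from these counts.

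pdx1 (ENSDARG00000002779, chromosome 24, 22292136 to 22294654, plus strand) did not share the order of the hormone genes. It had 58, 33 and 59 counts, or 4.90, 3.10 and 5.10 CPM, in transgenic libraries. It had 16, 64 and 12 counts, or 1.43, 4.92 and 1.61 CPM, in wild-type libraries. Transgenic library 2, which had the highest level of all 5 hormone genes, was the lowest transgenic library for pdx1, and wild-type library 2 lay above 2 of the 3 transgenic libraries. The log2 fold change was 0.68 ± 0.46, and it was 1.53 without wild-type library 2.

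**Figure D1:**
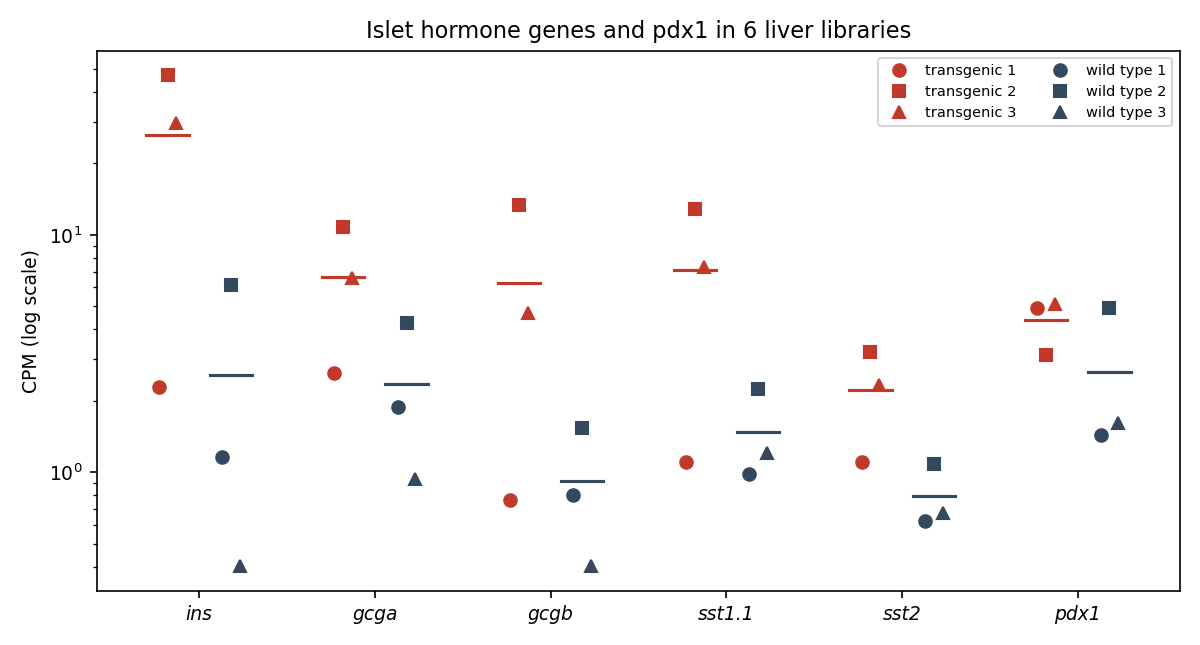
Normalized level (CPM, log scale) of the 6 genes in each library, transgenic on the left of each pair and wild type on the right, with horizontal lines at the mean of 3 libraries. For the hormone genes transgenic libraries 2 and 3 stand above all wild-type libraries and transgenic library 1 stands near or among them, while pdx1 runs between 1.43 and 5.10 CPM in another order.

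Compared on the length-scaled FPKM, ins averaged 50.5 ± 40.4, gcgb 9.60 ± 8.94, sst1.1 9.54 ± 7.20, pdx1 3.92 ± 1.36, sst2 3.91 ± 1.57 and gcga 3.34 ± 1.74 in transgenic livers (SD, n = 3). In wild-type livers ins averaged 5.58 ± 6.89, pdx1 2.46 ± 1.92, sst1.1 2.18 ± 1.08, gcgb 1.60 ± 1.07, sst2 1.504 ± 0.536 and gcga 1.30 ± 0.984 FPKM (SD, n = 3). Neighbours in these orders, apart from ins over gcgb in transgenic livers, lay well within the spread of the libraries, and in transgenic library 1 ins stood at 4.89 FPKM against 4.57 for pdx1.

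By the SD pooled over both groups, the hormone genes other than sst2 were among the genes with the widest spread. The pooled within-group SD of log2 CPM was 2.04 for ins, and 0.0971% of the genes tested had a larger one. For gcgb it was 1.48 and for sst1.1 1.30, with 0.353 and 0.695% of the genes above them. gcga had 0.996, sst2 had 0.565 and pdx1 had 0.704, with 2.14, 16.3 and 8.47% of the genes above. In transgenic livers alone the SD was 2.29 for ins and 0.38 for pdx1, and in wild-type livers it was 1.75 for ins and 0.92 for pdx1. By mean log2 CPM ins stood at place 11578 from the top among the genes tested.

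Leaving out single libraries moved every fold change of a hormone gene and turned none. For ins it was 2.53 without transgenic library 2 and 4.95 without wild-type library 2. For gcga it was 0.90 and 2.19 under the same omissions, for gcgb 1.47 and 3.28, for sst1.1 1.47 and 2.70, and for sst2 1.06 and 1.76. Without transgenic library 1 the values were 3.79 for ins, 1.82 for gcga, 3.20 for gcgb, 2.73 for sst1.1 and 1.75 for sst2. The number 2 library was the one with most hormone RNA in both groups. The authors' deposited table lists smaller log2 ratios, 0.38 for ins, 0.78 for gcga, 0.48 for gcgb, 1.01 for sst1.1, 0.70 for sst2 and 0.40 for pdx1. The version of DESeq2 behind them is not given, so they may not be the same measure as the edgeR values. For ins the authors' regularized log2 values averaged 7.08 in transgenic and 5.33 in wild-type libraries. In the authors' deposited table the adjusted p is 0.9998 for ins and 1 for the other members.

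**Figure D2:**
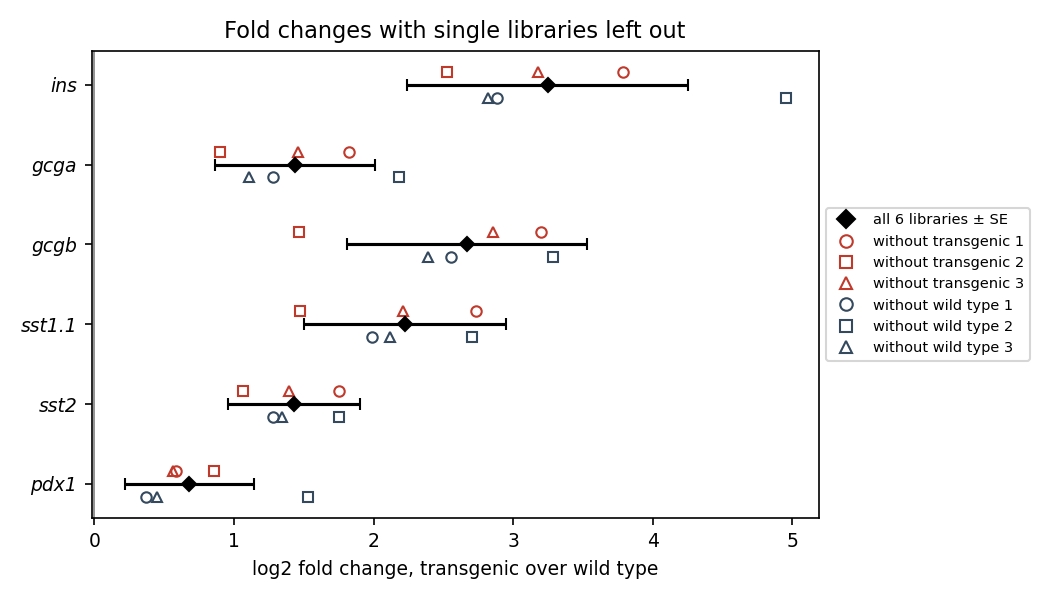
Log2 fold change of each member, transgenic over wild type, with all 6 libraries (black, with its SE) and with each library left out (open symbols). Every value is above 0, and each hormone gene has its lowest value without transgenic library 2, such as 2.53 for ins.

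The make-up of the hormone RNA differed between libraries as well as its amount. Summed over the 5 hormone genes there were 93, 928 and 583 counts in transgenic libraries and 61, 198 and 27 counts in wild-type libraries. Per 1000000 counts of the table this was 8.19, 73.9 and 53.5 in transgenic and 5.60, 16.2 and 3.49 in wild-type libraries. Transgenic libraries 2 and 3 stood above the rest, and transgenic library 1 stood between wild-type libraries 1 and 2.

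ins made up 42.7, 64.7 and 69.8% of the summed hormone FPKM in transgenic libraries and 32.7, 55.8 and 16.6% in wild-type libraries. The groups overlapped, and the 3 libraries with the most hormone counts were the 3 with the largest insulin share. ins counts are themselves part of the hormone counts, so these measures are not independent. The glucagon genes together took 24.3, 18.9 and 13.1% in transgenic and 32.1, 21.3 and 23.6% in wild-type libraries. The somatostatin genes together took 32.9, 16.4 and 17.1% in transgenic and 35.2, 22.9 and 59.8% in wild-type libraries, the last from a library with 27 hormone counts in all. At this depth the shares of that library are poorly set.

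Within the glucagon pair, gcgb gave 48.0, 79.7 and 69.3% of the FPKM in transgenic and 57.7, 53.6 and 57.7% in wild-type libraries. These shares depend on the annotated lengths, 1880 bp for gcga and 592 bp for gcgb. gcga had 31, 115 and 76 counts in transgenic and 21, 55 and 7 in wild-type libraries. By counts gcga thus lay above gcgb in every library but transgenic library 2. Within the somatostatin pair, sst1.1 gave 43.8, 75.8 and 71.0% in transgenic and 55.0, 61.7 and 58.3% in wild-type libraries. In both pairs transgenic library 1 had the lowest share of all 6 libraries and transgenic libraries 2 and 3 had the highest shares. Transgenic library 1 had 9 counts of gcgb and 13 each of sst1.1 and sst2, and wild-type library 3 had 3 counts of gcgb. Which library had the lowest share is thus poorly set. For ins over gcga the FPKM ratio was 3.38, 16.9 and 17.4 in transgenic and 2.40, 5.64 and 1.66 in wild-type libraries. Its size depends on the annotated gcga length as well.

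**Figure D3:**
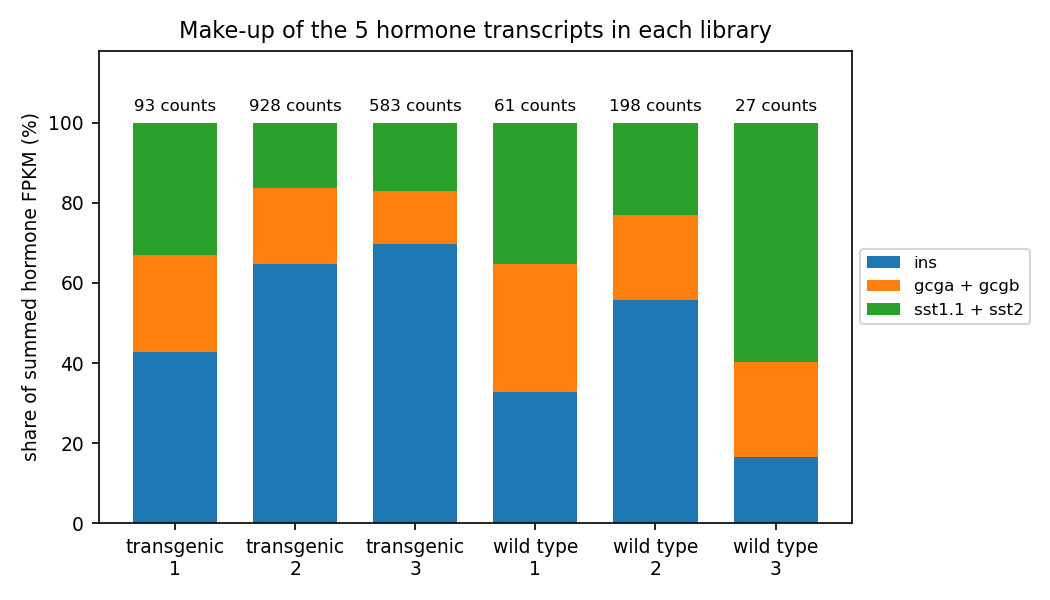
Share of the summed FPKM of the 5 hormone genes held by ins, by both glucagon genes and by both somatostatin genes, in percent, with transgenic libraries left of wild-type libraries and the summed counts above each bar. The insulin share is 64.7 and 69.8% in transgenic libraries 2 and 3 and 16.6% in wild-type library 3, which rests on 27 counts.

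Across the 6 libraries the hormone genes moved together. Pearson's r of log2 CPM with ins, over 6 libraries that differ in depth and share their group, was 0.987 for gcga, 0.964 for gcgb, 0.962 for sst2 and 0.943 for sst1.1. Among the 19572 other genes, ranked by their r with ins, these stood at places 2, 9, 10 and 33. pdx1 had an r of 0.608 and stood at place 1654. An r above 0.9 was found for 121 genes, or 0.618% of the others. With the group means taken out, r was 0.976 for gcga, 0.939 for gcgb, 0.944 for sst2 and 0.908 for sst1.1, against 0.338 for pdx1. The places were then 30, 120, 109 and 249, and 5583 for pdx1. As the members were picked with their differences between these libraries known, these r values and places are a description.

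The 5 genes outside the members with the highest r were TTF1, EHD1, slc35d1a, polr2eb and ch211-93n23.6, with r of 0.993, 0.983, 0.977, 0.975 and 0.973. Their log2 CPM spanned at most 0.95 over the libraries, where that of ins spanned 6.34 and the median gene 0.82. They thus had nearly its relative pattern over the libraries and not its size. TTF1 rested on 5 to 13 counts in a library. Of the genes tested, 1148 had a span of at least 2 on the log2 scale, a limit set after the values were seen. Besides ins, 18 genes had both such a span and an r above 0.9. Of these 18, 4 were members (gcga, gcgb, sst1.1 and sst2), 9 were on the list of exocrine pancreas genes, 2 were other peptide hormone genes (sst1.2 and gip) and 3 were on no list. The members were picked with their differences between these libraries known, so their place among the 18 is a description.

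Exocrine pancreas genes, which encode the digestive enzymes made by acinar cells, had levels that moved with the hormones. The 29 genes of this list in the table took 0.568, 1.30 and 0.903% of the counts of transgenic libraries and 0.379, 0.836 and 0.424% of wild-type libraries. Of the 29, 26 had a positive and 3 a negative log2 fold change, with a median of 0.86. edgeR, adjusted over all genes, called 0 of them (0% of all genes), and at an unadjusted p under 0.05, 7 had a higher and 0 a lower level, beside 0.869 and 1.38% of all genes. Their median r with ins was 0.895, with 13 of 29 above 0.9, where the median over all genes was 0.047. For sst1.1 and sst2 the medians were 0.914 and 0.915, with 18 of 29 above 0.9 for each. The trypsin gene prss1 had 9100, 22193 and 13744 counts in transgenic and 5672, 14696 and 4419 counts in wild-type libraries. ptf1a, the defining transcription factor gene of acinar cells, had 22, 21 and 14 counts in transgenic and 18, 27 and 13 counts in wild-type libraries. Their part in the hormone values was not tested. In RNA from whole tissue, more cells of a type and more RNA per cell cannot be told apart.

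Hormone RNA spread more widely than exocrine RNA. Over the 6 libraries the scaled hormone counts spanned 21.2-fold and the exocrine share 3.42-fold. The hormone genes were picked with their differences between these libraries known, so their wider span is a description. Its low end rests on 27 hormone counts in wild-type library 3. Per 1000 exocrine counts there were 1.44, 5.70 and 5.93 hormone counts in transgenic libraries and 1.48, 1.94 and 0.825 in wild-type libraries. Transgenic library 1 matched wild-type library 1 on this measure, and transgenic libraries 2 and 3 were alike. Transgenic library 3 and wild-type library 2 had exocrine shares of 0.903 and 0.836%, and their hormone genes stood at 53.5 and 16.2 per 1000000 counts. The cause of this difference was not tested.

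Intestinal genes were set beside pdx1. The 24 genes of the intestine list in the table took 0.196, 0.117 and 0.141% of the counts of transgenic libraries and 0.125, 0.334 and 0.111% of wild-type libraries. fabp2 and rbp2a weigh most in this share, with means of 463 and 408 CPM over the libraries, and MGAM was next at 137 CPM. Over the 23 intestinal genes tested, the median r with pdx1 was 0.561, close to the 0.531 of the exocrine list. For ins the medians were 0.155 for the intestine list and 0.895 for the exocrine list. The 3 libraries with the highest intestinal share were the 3 with the highest pdx1 level, though not in the same order. cdx1b, an intestinal transcription factor gene, had 148, 65 and 138 counts in transgenic and 75, 235 and 19 counts in wild-type libraries. Their part in the pdx1 values was not tested.

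**Figure D4:**
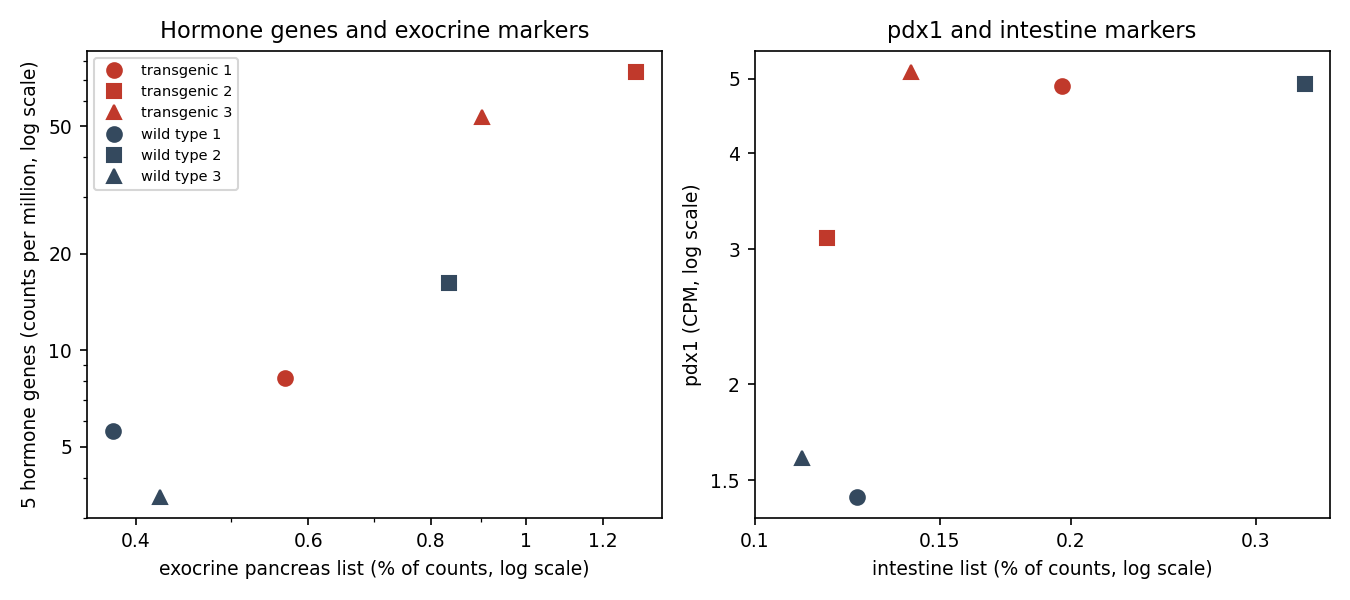
Left, summed counts of the 5 hormone genes per 1000000 counts against the share of counts on the exocrine pancreas list, and right, CPM of pdx1 against the share on the intestine list, each on log scales with 1 point per library. On the left, transgenic library 3 stands above wild-type library 2 at nearly the same exocrine share, and on the right the 3 libraries with most intestinal counts have the highest pdx1.

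Other peptide hormone genes were counted beside the members. For 27 names, 13 genes were in the table, with vip matching 2 of them, and 8 genes passed the filter on low counts. insb, the second insulin gene of zebrafish, and npy stand on the authors' list of genes with fewer than 10 counts. Of the 8, 3 had positive and 5 negative log2 fold changes, with a median of -0.52 beside 0.004 over all genes. With a Benjamini-Hochberg limit of 0.05 over all genes, edgeR's quasi-likelihood fit called 0 of the 8, and 0% of the 19573 genes as higher and 0% as lower. DESeq2 called 1 gene of the table, foxn3, and limma-voom 0. edgeR did not call foxn3 itself (log2 fold change 2.74, adjusted p = 0.11), so nothing is read from 0 edgeR calls in any list. At an unadjusted p under 0.05, 2 of the 8 had higher and 2 lower levels, where 0.869% of all genes had higher and 1.38% lower levels.

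Among them were 2 further somatostatin genes. sst6 had 2.28, 1.505 and 2.08 CPM in transgenic and 1.07, 0.538 and 1.21 CPM in wild-type libraries, with a log2 fold change of 1.1 ± 0.40 and an edgeR adjusted p of 1. Its groups did not overlap, as for 3.31% of the genes tested in that direction, and its r with ins was 0.224. sst1.2, listed as BX571880.1, lies on the same strand of chromosome 15 as its tandem copy sst1.1, at 35384247 to 35387962. It had 6, 26 and 21 counts in transgenic and 8, 13 and 3 counts in wild-type libraries, with an r of 0.965 with ins and a log2 fold change of 1.09 ± 0.58 (edgeR, adjusted p = 1). It was 0.63 without transgenic library 2. How the authors' counting shared reads between these 2 copies is not stated, so their separate values are uncertain.

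gip, whose mammalian product is a gut hormone that raises insulin release, had 10, 16 and 18 counts in transgenic and 5, 11 and 1 counts in wild-type libraries. Its r with ins was 0.934 and its log2 fold change 1.31 ± 0.55 (edgeR, adjusted p = 1), or 2.01 without wild-type library 2. penka, an opioid peptide gene, had 1.69, 1.32 and 1.38 CPM in transgenic and 1.52, 4.38 and 2.68 CPM in wild-type libraries, a log2 fold change of -0.97 ± 0.41, or -0.48 without wild-type library 2. adcyap1b, which encodes a neuropeptide precursor, had a log2 fold change of -1.04 ± 0.46 that was -0.24 without wild-type library 3.

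Transcription factor genes of the islet did not follow the hormones in level. Of 34 names 26 genes were in the table and 24 were tested, with 12 positive and 12 negative log2 fold changes and a median of 0.005. 0 were called by edgeR (0% of all genes), and 0 had an unadjusted p under 0.05, beside 0.869% of all genes higher and 1.38% lower. With 24 genes, nothing is read from these counts. Their median r with ins was -0.09, the highest was 0.497, and 0 lay above 0.9. isl1, which is active in all islet cell types and in neurons, had 2.62, 2.07 and 3.37 CPM in transgenic and 3.39, 4.15 and 5.22 CPM in wild-type libraries. Its groups did not overlap, as for 3.15% of the genes tested in that direction, and the log2 fold change was -0.65 ± 0.30 (edgeR, adjusted p = 1). rfx6, needed for islet cells to form in mice, had a log2 fold change of 0.50 ± 0.37, insm1a of endocrine and neural cells -0.58 ± 0.42, nkx6.2 0.67 ± 0.46 and foxa3 0.29 ± 0.20. Without single libraries nkx6.2 ran from 0.25 to 1.18 and insm1a from -0.96 to -0.12. Among the genes of this list with high levels were hnf1ba and foxa2, which the liver also uses, at 122 ± 19.8 and 58.5 ± 5.26 CPM in transgenic livers and 115 ± 19.2 and 54.3 ± 9.90 CPM in wild-type livers (SD, n = 3 each).

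Genes of prohormone processing, secretory granules and regulated secretion gave 30 tested members, 8 with positive and 22 with negative log2 fold changes and a median of -0.40. edgeR called 0 of them (0% of all genes). At an unadjusted p under 0.05, 1 had a higher and 5 a lower level, beside 0.869 and 1.38% of all genes. SLC30A8, the zinc transporter of beta-cell granules, had 20.01, 7.05 and 14.9 CPM in transgenic and 6.52, 6.54 and 4.95 CPM in wild-type libraries. Its groups did not overlap, as for 3.31% of the genes tested in that direction. Its log2 fold change was 1.21 ± 0.35 (edgeR, unadjusted p = 0.0066, adjusted p = 1), and without single libraries it ran from 0.86 to 1.52. SLC30A8 was lowest of the transgenic libraries in library 2, where ins was highest, and its r with ins was 0.294. pcsk1 and pcsk2, whose enzymes cut proinsulin and proglucagon, had 42, 41 and 52 and 88, 128 and 115 counts in transgenic libraries, and 43, 37 and 65 and 74, 110 and 181 counts in wild-type libraries.

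The genes scg2b, gad2, syt4 and pcsk1nl, which were 4 of these 5, each had the highest level of the 6 libraries in wild-type library 3. scg2b, a granule protein gene, stood at 3.63, 4.61 and 4.15 CPM in transgenic and 4.197, 5.62 and 27.6 CPM in wild-type libraries. Its log2 fold change was -1.56 ± 0.63 and -0.25 without wild-type library 3. Under the same omission gad2, which makes GABA, was at -0.31 in place of -1.09 ± 0.45, syt4 at -0.56 in place of -1.20 ± 0.48 and pcsk1nl at -0.44 in place of -0.97 ± 0.35. The groups of pcsk1nl did not overlap, as for 3.15% of the genes tested in that direction. The neuronal list took 0.0108, 0.00871 and 0.0142% of the counts in transgenic and 0.0131, 0.0146 and 0.0321% in wild-type libraries, with wild-type library 3 the highest. Their part in these values was not tested.

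Receptors for the hormones were measured in the same livers. 8 of the 15 names were found and tested, with 2 positive and 6 negative log2 fold changes and a median of -0.21. edgeR called 0 (0% of all genes), and 0 had an unadjusted p under 0.05, beside 0.869% of all genes higher and 1.38% lower. With 8 genes, these counts do not show that the receptors were unchanged. The insulin receptor genes insra and insrb stood at 101.7 ± 6.83 and 69.5 ± 6.74 CPM in transgenic and 105.8 ± 24.2 and 66.4 ± 14.4 CPM in wild-type livers (SD, n = 3 each). The IGF receptor genes igf1rb and igf1ra had log2 fold changes of -0.38 ± 0.22 and -0.24 ± 0.17, and their groups did not overlap, as for 3.15% of all genes in that direction. The glucagon receptor gene gcgrb stood at 8.81 ± 3.12 CPM in transgenic and 7.50 ± 2.56 CPM in wild-type livers, a log2 fold change of 0.23 ± 0.33. The somatostatin receptor genes sstr3 and SSTR5 had -0.55 ± 0.48 and -0.47 ± 0.40.

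The list of genes that act downstream of insulin and glucagon had 41 tested members, 21 with positive and 20 with negative log2 fold changes and a median of 0.03. edgeR called 0 (0% of all genes). At an unadjusted p under 0.05 stood trib3 alone, beside 2.25% of all genes, so nothing is read from this count. trib3, whose product restrains the insulin-activated kinase Akt in mammals, had 19.2, 26.8 and 19.5 CPM in transgenic and 34.9, 57.3 and 24.0 CPM in wild-type libraries. Its log2 fold change was -0.83 ± 0.30 (edgeR, adjusted p = 1) and -0.43 without wild-type library 2. The insulin receptor substrate gene IRS1 had -0.34 ± 0.24, creb1a of glucagon signalling -0.39 ± 0.24, creb3l3a 0.30 ± 0.21 and the kinase gene rps6kb1a 0.53 ± 0.32. igfbp1a, which insulin represses, had 656, 424 and 228 CPM in transgenic and 676, 484 and 343 CPM in wild-type libraries. pck1, which glucagon induces and insulin represses, had 807, 1249 and 479 CPM in transgenic and 879, 1042 and 470 CPM in wild-type libraries. Neither igfbp1a nor pck1 set transgenic libraries 2 and 3, where ins was high, apart from the other libraries in 1 direction. Over the 41 genes, r with ins ran from -0.951 to 0.779, with a median of 0.067. Over all genes tested it ran from -0.994 to 0.993, with a median of 0.047.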

How the data were processed

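Per the labels, stranded total RNA libraries gave single-end reads of 50 bp. Reads were aligned with Novoalign to Zv9, per the submitters' processing notes. Per the file headers, the authors deposited raw counts of alignments sharing 1 bp or more with a gene, FPKM values, and regularized log2 values of DESeq2. The deposited log2 ratios and scores (10 times the negative log10 of the adjusted p) are the authors' own comparison, and the deposited log2 values were not tested. Whether counting used strand is not stated. Coordinates are those of the deposited table.

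Counts were tested in R 4.3.3 with edgeR 4.0.16 (TMM, filterByExpr by group, glmQLFit, glmQLFTest, transgenic minus wild type, no covariate, Benjamini-Hochberg over 19573 genes at 0.05). The steps were tested on simulated data with the same spread setting for every gene. Spread in these libraries differs between genes, so that check does not give the power reached here. Standard errors are the log2 fold change over the square root of F. Log2 CPM used a prior count of 2. DESeq2 1.42.0 and limma 3.58.1 were alternatives, with other scalings, no filter, a replicate block, mean FPKM and single libraries left out. Replicates were compared for duplicates, and their chi-square per gene was 17.4 to 30.5, so none was.

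The members, lists and rules were chosen with earlier results of these data known. Of 262 names in 10 lists, 205 were found in the table, 31 of them through reference names. From each of the 5 lists on hormones and their pathway the text names the 5 genes of smallest unadjusted p and the 3 of highest level, from the lists of other tissues the top and defining genes, and the 5 genes most like ins. Some genes that this rule names are not reported here. pcsk1, pcsk2, and the genes of the wide-span count were named after their values were seen. Promoter motifs were planned and are not analysed here.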

Additional observations from a re-analysis of the deposited data

How the results depend on the processing

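Under the alternatives tried (2 other scalings, no filter, DESeq2, limma-voom, a replicate block, mean FPKM and each library left out), the log2 fold changes of the 6 members kept their sign. They moved by more than the within-group SD once, for pdx1, whose values without single libraries ran from 0.37 to 1.53. edgeR's count of genes called higher over the whole table was 0, and it was 1 with DESeq2 and 1 with the replicate block, and 0 to 1 without single libraries. That gene was foxn3, at an adjusted p of 0.11, and it ran from 8.9e-15 with DESeq2 to 1 over all alternatives. The count of genes called lower was 0 in each. edgeR had 441 genes at an unadjusted p under 0.05 and DESeq2 135 higher and 269 lower. SSTR5 turned to 0.12 without wild-type library 2 and ran down to -0.71 without the others. The r of pdx1 with ins was 0.34 with group means removed, and the cause was not tested. Same-numbered libraries deviated together with r of 0.344, -0.107 and 0.156, so the numbers were not taken as pairs. In the replicate block no member turned sign. gip could not be fitted without transgenic library 2, where it fell under the filter. Each of the 6 members had counts under 20 in at least 1 library, which limits their fold changes, that of ins included.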
